A study of Homo sapiens with 6 samples.

Results

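The genes described here encode heat shock proteins and the DNAJ co-chaperones that work with them. They were chosen by name, as every gene whose symbol begins with HSPA, HSPB and a digit, HSPD1, HSPE1, HSPH1, HSP90, or DNAJ followed by A, B or C and a digit. Symbols with a hyphen and named pseudogenes were dropped, and a mean of at least 10 counts over the 6 libraries was required. Of 27754 genes in the files, 85 symbols matched, 74 were kept, and 65 reached the minimum. All 65 also passed the low-count filter of the test. The least abundant member was DNAJB3 with a mean of 21.3 counts, and the most abundant of the 9 names below the minimum was HSPA12B with a mean of 7.17. The others below it were HSPA7, HSPB2, HSPB3, HSPB7, HSPB9, DNAJB7, DNAJB8 and DNAJC5G, of which HSPB3 and DNAJB8 had no count in any library.

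Chaperones of the HSP70 class bind unfolded stretches of protein and release them in a cycle driven by ATP. J-domain proteins (DNAJ) bring clients to HSP70 and trigger hydrolysis, HSP110 proteins exchange the nucleotide, and HSP90 takes over partly folded clients such as steroid hormone receptors and kinases. Separate sets serve the cytosol and nucleus, the endoplasmic reticulum (ER), where secreted and membrane proteins fold, and the mitochondrial matrix. Heat shock factor 1 (HSF1) is known for inducing the cytosolic set, and the unfolded protein response for inducing the ER set. Low oxygen is known to limit disulfide formation and protein synthesis in tumor cells.

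The libraries were stranded mRNA sequencing of T47D, a luminal-like line of human breast cancer cells. The groups were 3 normoxia libraries, from cells at 20% O2, and 3 hypoxia libraries, from cells kept for 48 h at 0.5% O2 by the labels of the libraries, whereas the study's text gives another oxygen level for hypoxia. All 6 libraries came from this cell line, which limits the comparison to a single genetic background, and no other treatment or alteration is given for them. The labels do not state that replicates were separate cultures, whereas the study describes its replicates as independent experiments and speaks of paired samples of hypoxia and normoxia. Because whole cultures were sequenced, fewer cells of a kind and less RNA per cell cannot be told apart. Only RNA was measured, so every rise or fall below is of transcripts, and protein levels are not known.

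Library totals ran from 32989104 counts for normoxia replicate 3 to 89883409 counts for hypoxia replicate 3. VEGFA, a target of hypoxia-inducible factors, rose from 39.2 ± 6.51 to 804 ± 35.8 CPM (counts scaled to the size of the library; SD, n = 3). All 9 luminal markers checked were expressed, although ESR1, PGR, GATA3 and FOXA1 fell in hypoxia, and 4 of 5 markers of immune, endothelial and fibroblast cells stayed under 10 counts in every library. The other marker, COL1A1, had 2814 to 9062 counts in each library. Among 12 basal or mesenchymal markers, summed at 13.8 to 39.9 CPM, VIM had 7, 12 and 395 counts in normoxia and 35, 35 and 1001 counts in hypoxia, highest in replicate 3 of each condition. By counts, CAV1, CAV2, MSN, SPARC and ZEB1 were also highest in normoxia replicate 3 among normoxia libraries, whereas KRT5, KRT14, KRT17, TP63 and FOXC1 were not. AXL had 100, 145 and 124 counts in normoxia, and replicates 2 and 3 were close once scaled to library size. AXL and KRT17 rose in hypoxia, with log2 fold changes of 1.97 and 4.12. Normoxia replicate 3 also stood apart in the heat shock genes. HSPA1B was 4.34 times the mean of normoxia replicates 1 and 2 there, HSPA1A 2.83 times, HSPA6 2.66 times, HSPA8 1.71 times, HSPB1 1.63 times, DNAJB1 1.59 times and HSPH1 1.56 times, against a median ratio of 0.989 over all genes tested. The cause was not tested, and results that rest on this library are given with and without it.

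**Figure D1:**
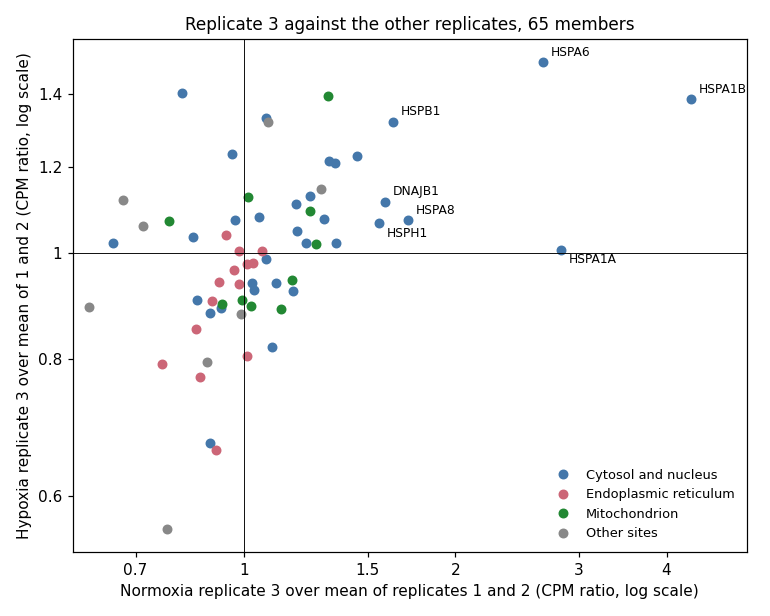
CPM of each of the 65 members in normoxia replicate 3 over the mean of normoxia replicates 1 and 2 (x axis, log scale) against the same ratio in hypoxia (y axis, log scale), with 1 point per gene coloured by compartment. Labelled genes lie above 1.5 on the x axis and are all cytosolic, with HSPA1B at 4.34, whereas 0 of 14 ER members lie above 1.2. Of all 15657 genes tested, 2790 lie above 1.2.

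In normoxia replicate 3, 14 of 33 cytosolic and nuclear members were above 1.2 times the mean of the other replicates, against 0 of 14 ER members and 3 of 10 mitochondrial members. Of all 15657 genes tested, 2790 were above 1.2 times. The compartments hold few genes, and no test was made between them. The median ratio was 1.17 for cytosolic, 0.954 for ER and 1.08 for mitochondrial members. In hypoxia replicate 3 the same medians were 1.07, 0.939 and 0.983. HSPA1A, at 1.01 times the mean of the other hypoxia replicates, was not raised there. HSPA6 was at 1.5 times and HSPA1B at 1.39 times.

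Sequence upstream of the members shows which of them hold the elements that HSF1 and the ER stress pathway are known to bind. RefSeq promoters (GRCh38.p14) were found for 58 of the 65 members, with 77 windows of 250 bases before a transcript start. DNAJB3, DNAJC1, DNAJC22, DNAJC24, DNAJC5B, HSPA14 and HSPB11 had no entry. The heat shock element was searched on both strands as GAANNTTC or TTCNNGAA, neighbouring copies of which may overlap by 3 bases. It occurred in 18 of 77 member windows (23.4%) and in 11.6% of all 35116 windows of the table. Of the genes, 16 of 30 cytosolic members held it, against 0 of 13 in the ER and 2 of 10 in mitochondria. These stretches of 30 bases from some of the genes that hold it, placed on GRCh37, the build of the count files, show it in capitals.
HSPA1A, chr6:31783203-31783232, plus strand: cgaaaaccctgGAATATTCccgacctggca
HSPA8, chr11:122933053-122933082, minus strand: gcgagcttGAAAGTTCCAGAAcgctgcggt
HSPA8, chr11:122932878-122932907, minus strand: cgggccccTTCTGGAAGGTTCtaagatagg
HSPB1, chr7:75931797-75931826, plus strand: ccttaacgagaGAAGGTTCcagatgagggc
HSP90AA1, chr14:102553448-102553477, minus strand: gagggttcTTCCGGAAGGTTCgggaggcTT
HSP90AA1, chr14:102553431-102553460, minus strand: GTTCgggaggcTTCTGGAAaaagcgccgcg
DNAJA1, chr9:33025062-33025091, plus strand: aaagggctccaGAAGATTCcacgagcgccg
DNAJB1, chr19:14629268-14629297, minus strand: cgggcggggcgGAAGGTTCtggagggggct
DNAJB1, chr19:14629238-14629267, minus strand: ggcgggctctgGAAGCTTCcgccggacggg
HSPD1, chr2:198364785-198364814, minus strand: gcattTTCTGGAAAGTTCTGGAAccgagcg
HSPA6, chr1:161494139-161494168, plus strand: ccgatctgcccGAACCTTCtcccggggtca
HSPA6, chr1:161494248-161494277, plus strand: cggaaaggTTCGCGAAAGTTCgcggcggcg

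Of the genes shown, HSPA8, HSP90AA1, HSPD1 and HSPA6 carried runs of overlapping matches, whereas HSPA1A, HSPB1 and DNAJA1 each carried a single match. HSP90AB1 and DNAJB6, not shown, also carried overlapping matches. HSPH1 had a window but no match. The ER stress element was searched as CCAAT and CCACG 9 bases apart, on both strands. It was found in 26 of 35116 windows (0.074%), and among members only in those of HSPA5 and HSP90B1, the main HSP70 and HSP90 proteins of the ER. Capitals mark the whole match here, of which only the letters at its ends are defined.
HSPA5, chr9:128003664-128003693, minus strand: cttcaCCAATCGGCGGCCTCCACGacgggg
HSP90B1, chr12:104323989-104324018, plus strand: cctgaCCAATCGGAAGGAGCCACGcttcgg
HSP90B1, chr12:104324094-104324123, plus strand: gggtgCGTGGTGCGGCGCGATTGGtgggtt

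The second HSP90B1 stretch holds the element on the opposite strand. By count the heat shock element was in 4 of 13 higher members with a window and in 9 of 28 lower ones, and the ER stress element in 2 of the 13 and 0 of the 28. The short hypoxia response core, ACGTG or GCGTG on both strands, was in 39 of 58 members and in 59.7% of their windows, against 43.2% of all windows. TGATGNAA, a pattern of the kind ATF4 binds, was found only upstream of DNAJA4 and HSPA4L, and 3.14% of all windows hold it. A match is a description of these letters and does not show binding.

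Hypoxia was compared with normoxia across all 15657 tested genes with edgeR's quasi-likelihood test, and a gene was called when its Benjamini-Hochberg adjusted p was below 0.05. Of the 65 members, 15 were called higher (23.1%) and 30 lower (46.2%), where 30.4% of all genes tested were called higher and 29.1% lower. The higher members include DNAJB3 and DNAJB13, which reached the minimum mean count for members only through their hypoxia libraries. The median log2 fold change of members was -0.23, against 0.03 for all genes tested. All hypoxia libraries lay above all normoxia libraries in 17 members and below them in 31. Over all 15657 genes tested the same counts were 5469 and 5067, so separate groups were common in these data. Gaps between groups given below for single genes are to be read beside these counts. Fitted with the replicate number as a block, 18 members were higher and 33 lower, against 36.6% and 35.2% of all genes. Without normoxia replicate 3 the counts were 16 and 30, against 28.7% and 27% of all genes. Of the 47 most abundant members, those averaging 1000 counts or more, 6 rose (12.8%) and 28 fell (59.6%), where 20.7% of the 8151 tested genes at that level were called higher and 42.5% lower. With upper-quartile normalization in place of TMM the median of all genes moved by 0.16 to 0.19, the split of calls among all genes went from 4765 higher and 4551 lower to 5972 and 3285, and that among members to 17 higher and 21 lower. The 9 lower calls lost in that way were those of HSP90AB1, DNAJA2, DNAJB14, DNAJC7, DNAJC10, DNAJC13, DNAJC14, DNAJC19 and DNAJC21, and 0 higher calls were lost.

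**Figure D2:**
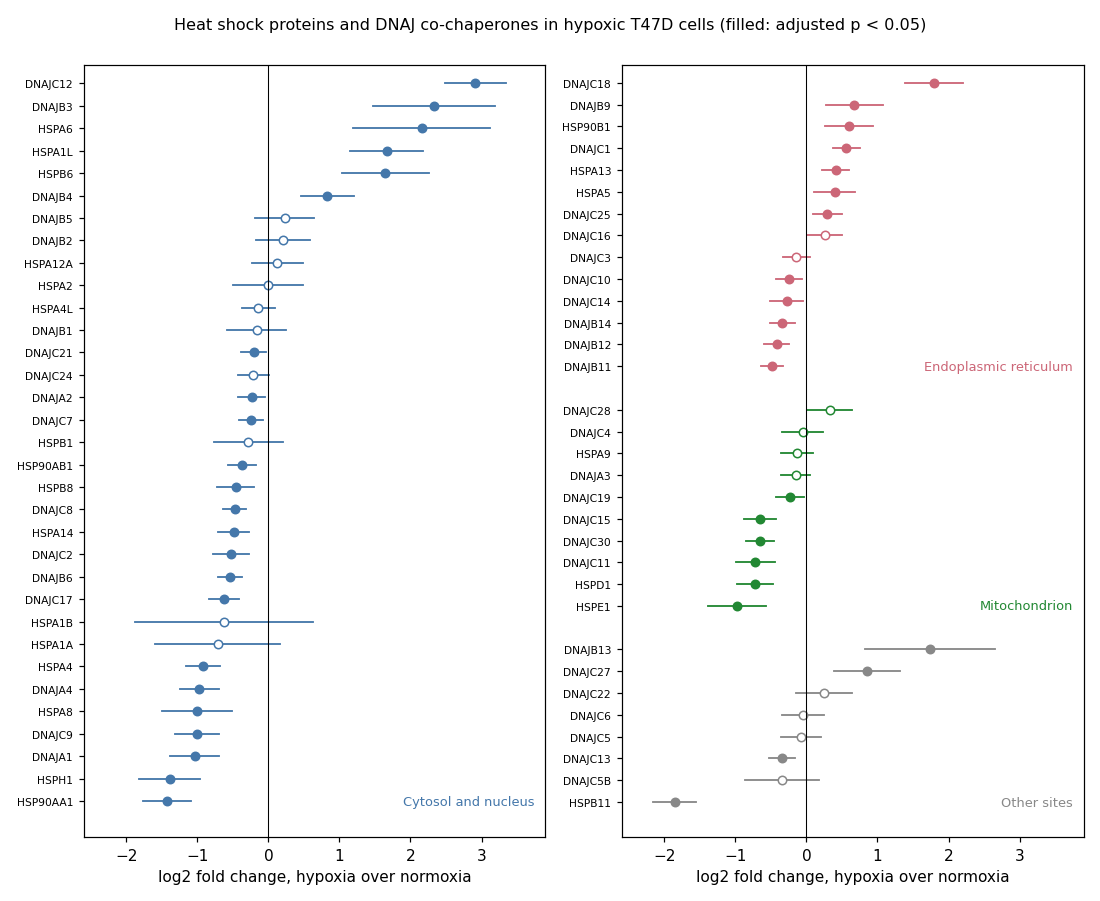
Log2 fold change of each of the 65 members, hypoxia over normoxia, with its 95% confidence interval from the edgeR fit (bars), grouped by compartment. Filled points passed the adjusted p threshold. Most filled cytosolic points and all 6 filled mitochondrial points lie left of 0, whereas the ER points fall on both sides, with 7 higher and 5 lower. Of all genes tested, 30.4% were called higher and 29.1% lower.

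The median was positive for ER members and negative for cytosolic and mitochondrial members. Cytosolic and nuclear members had 6 of 33 higher and 17 lower with a median of -0.28, ER members 7 of 14 higher and 5 lower with a median of 0.28, and mitochondrial members 0 of 10 higher and 6 lower with a median of -0.44. Relative to the median of all genes these medians were -0.31, 0.25 and -0.47, and with upper-quartile factors -0.31, 0.25 and -0.47. Another 8 members act elsewhere, in cilia, at membranes or on vesicles, and had 2 higher and 2 lower. Of all genes tested, 30.4% were called higher and 29.1% lower. Of tested genes averaging 1000 counts or more, 20.7% were called higher and 42.5% lower. No test was made between the compartments.

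The cytosolic HSP90 pair fell by unequal amounts. HSP90AA1, the stress-inducible HSP90, was at 4122, 3618 and 5110.3 CPM in normoxia and 1533, 1445 and 1808 CPM in hypoxia. All hypoxia libraries lay below all normoxia libraries, a 2.69-fold fall (log2 fold change -1.42, SE 0.15, adjusted p = 0.000214). HSP90AB1, the constitutive form, was at 2852, 2689 and 3073 CPM in normoxia and 2239, 2297 and 2130.4 CPM in hypoxia. Its groups did not overlap either, and the fall was 1.29-fold (log2 fold change -0.37, SE 0.09, adjusted p = 0.00723), but the call was lost with upper-quartile factors (log2 fold change -0.21). Per length, HSP90AA1 was at 1051 ± 186 FPKM in normoxia and 392 ± 46.4 FPKM in hypoxia (SD, n = 3), and HSP90AB1 at 992 ± 66.6 FPKM in normoxia and 768 ± 29.2 FPKM in hypoxia (SD, n = 3). FPKM here are counts scaled to the length of the exons and to the size of the library. The FPKM ratio of HSP90AA1 to HSP90AB1 was 1.03, 0.956 and 1.18 in normoxia replicates 1 to 3 and 0.487, 0.447 and 0.603 in hypoxia replicates 1 to 3, so the forms were at similar levels in normoxia and HSP90AB1 was the higher in every hypoxia library.

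HSP110 proteins act as nucleotide exchange factors for HSP70. HSPH1, the heat-inducible member, was at 119, 95.3 and 167 CPM in normoxia and 48.1, 46.9 and 50.7 CPM in hypoxia. Normoxia replicate 3 was the highest library, the groups did not overlap, and the fall was 2.62-fold (log2 fold change -1.39, SE 0.19, adjusted p = 0.000586); without normoxia replicate 3 the log2 fold change was -1.15 (adjusted p = 0.000223). HSPA4, its constitutive relative, fell 1.89-fold, from 325 ± 42.4 to 171 ± 4.89 CPM (log2 fold change -0.92, SE 0.10, adjusted p = 0.000264). HSPA4L, another relative, had a log2 fold change of -0.14 that was not called and turned positive with upper-quartile factors.

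HSPA8, the constitutive HSP70 that also uncoats clathrin vesicles, was the most abundant HSP70 per length. It was at 2319.8, 2125 and 3803 CPM in normoxia and 1456, 1227 and 1439.7 CPM in hypoxia. Every hypoxia library was below every normoxia library, and normoxia replicate 3 was far above the others. The fall was 2-fold (log2 fold change -1.001, SE 0.21, adjusted p = 0.00478), and without normoxia replicate 3 the log2 fold change was -0.70 (adjusted p = 0.00107). HSPA8 was at 1118 ± 373 FPKM in normoxia and 559 ± 52 FPKM in hypoxia (SD, n = 3).

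The stress-inducible pair HSPA1A and HSPA1B lie next to each other and are nearly identical, so reads may be shared between them or lost, and their separate counts are uncertain. The files also list their exons, and those of HSPA1L, on 5 sequences of the major histocompatibility region. HSPA1A was at 34.7, 37.8 and 102 CPM in normoxia and 36.9, 33.8 and 35.6 CPM in hypoxia. Normoxia replicate 3 lay far above the other 5 libraries, which overlapped between conditions, and the gene was not called (log2 fold change -0.72, SE 0.38, adjusted p = 0.137). Without that library the log2 fold change was -0.04 (adjusted p = 0.744). HSPA1B, at 25.4, 27.2 and 114 CPM in normoxia and 32.7, 30.8 and 44 CPM in hypoxia, had the same outlying library and was not called (log2 fold change -0.63, SE 0.54, adjusted p = 0.345). Its sign turned without normoxia replicate 3, to 0.44 (adjusted p = 0.0415). Summed to 1 gene, the pair had a log2 fold change of -0.67, which was not called.

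The rarely expressed HSP70 genes HSPA6 and HSPA1L went the other way. HSPA6, an HSP70 that is near silent without stress, was at 0.279, 0.376 and 0.872 CPM in normoxia and 2.05, 1.72 and 2.82 CPM in hypoxia. The lowest hypoxia library was above the highest normoxia library, and the rise was 4.45-fold (log2 fold change 2.16, SE 0.42, adjusted p = 0.00304). Without normoxia replicate 3, its highest normoxia library, the log2 fold change was 2.75 (adjusted p = 0.000588). HSPA6 resembles HSPA7, which had 0 to 4 counts in each library. HSPA1L, known from testis, was at 1.22, 1.91 and 1.94 CPM in normoxia and 4.69, 5.52 and 5.77 CPM in hypoxia and rose 3.17-fold (log2 fold change 1.66, SE 0.22, adjusted p = 0.000564). Both stayed low per length, at 0.932 ± 0.24 FPKM for HSPA6 and 2.1 ± 0.221 FPKM for HSPA1L in hypoxia. HSPA14, which assists folding at the ribosome, fell (log2 fold change -0.49, SE 0.09, adjusted p = 0.00283). HSPA2 and HSPA12A were not called, with log2 fold changes of -0.00, which turned positive with upper-quartile factors, and 0.12.

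Of the J-domain partners of the DNAJA class, 3 of 4 fell and 0 rose, where 29.1% of all genes tested were called lower and 30.4% higher. Of tested genes averaging 1000 counts or more, 42.5% were called lower. DNAJA1, a general partner of cytosolic HSP70, was at 174, 157 and 223 CPM in normoxia and 90.1, 77.8 and 102 CPM in hypoxia. The groups did not overlap, and it fell 2.05-fold (log2 fold change -1.04, SE 0.15, adjusted p = 0.000794). DNAJA4 fell 1.96-fold, with 59.4, 62.7 and 79.4 CPM in normoxia and 32.7, 34 and 35.8 CPM in hypoxia (log2 fold change -0.97, SE 0.12, adjusted p = 0.000415). DNAJA2, of the same kind, fell by less (log2 fold change -0.23, SE 0.08, adjusted p = 0.0376). The fourth, DNAJA3, is mitochondrial and is given with that compartment.

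Cytosolic members of the DNAJB class were mixed. DNAJB1, the main heat-inducible J-protein, was at 91.8, 102 and 154 CPM in normoxia and 98.2, 101 and 111 CPM in hypoxia. Normoxia replicate 3 was the only library above 111 CPM, and the gene was not called (log2 fold change -0.17, SE 0.18, adjusted p = 0.453). Without normoxia replicate 3 its log2 fold change was 0.09 (adjusted p = 0.455). DNAJB6, which holds back protein aggregation, fell (log2 fold change -0.54, SE 0.07, adjusted p = 0.00056). DNAJB4, a close relative of DNAJB1, rose 1.78-fold (log2 fold change 0.83, SE 0.16, adjusted p = 0.00332). DNAJB3, known from testis, had under 1 CPM in each library but rose 5.03-fold (log2 fold change 2.33, SE 0.37, adjusted p = 0.0013). It had 4, 7 and 4 counts in normoxia and 35, 28 and 50 counts in hypoxia. The normoxia counts of DNAJB3 lay below the minimum mean for members, so a fall from that level could not have been listed. DNAJB2, which links HSP70 to ubiquitin, was not called (log2 fold change 0.21, SE 0.16, adjusted p = 0.301), but was called higher with the replicate block (adjusted p = 0.0283) and without normoxia replicate 3 (0.40 (adjusted p = 0.021)). DNAJB5 was not called, with a log2 fold change of 0.23.

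DNAJC proteins bring HSP70 to special tasks. DNAJC12, a partner of HSP70 in folding the enzymes that hydroxylate aromatic amino acids, had the largest rise of all members. It was at 0.709, 0.726 and 0.614 CPM in normoxia and 5.56, 5.14 and 4.85 CPM in hypoxia, with no overlap between groups, and rose 7.53-fold (log2 fold change 2.91, SE 0.19, adjusted p = 4.16e-05). DNAJC9, a chaperone of histones, went the other way, from 99.8 ± 8.04 to 49.8 ± 8.92 CPM (log2 fold change -1.001, SE 0.13, adjusted p = 0.000589). DNAJC17 and DNAJC8, which take part in RNA splicing, fell with log2 fold changes of -0.62 and -0.48. DNAJC2, which works with HSPA14 at the ribosome, fell as well (log2 fold change -0.53, SE 0.11, adjusted p = 0.00417). DNAJC7, which binds both HSP70 and HSP90, fell by less (log2 fold change -0.25, SE 0.07, adjusted p = 0.0175), and DNAJC21, of ribosome assembly, also fell (log2 fold change -0.21, adjusted p = 0.0417), a call lost without normoxia replicate 3. DNAJC24, needed to modify elongation factor 2, was not called at -0.21 but was called lower with the replicate block (adjusted p = 0.017) and without normoxia replicate 3 (adjusted p = 0.048).

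Small heat shock proteins hold unfolded proteins in reserve without ATP. HSPB1 had the highest mean FPKM of all members and was at 797, 725 and 1238 CPM in normoxia and 663, 702 and 901 CPM in hypoxia. Replicate 3 was the highest library in each condition, the groups overlapped, and the gene was not called (log2 fold change -0.28, SE 0.21, adjusted p = 0.271). With the replicate block it was called lower (adjusted p = 0.0179), and without normoxia replicate 3 its log2 fold change was -0.02 (adjusted p = 0.925). HSPB8, which acts with BAG3 in disposal of aggregates, fell (log2 fold change -0.46, SE 0.11, adjusted p = 0.00861). HSPB6, best known from muscle, was at 0.557, 0.833 and 0.452 CPM in normoxia and 1.83, 2.02 and 1.97 CPM in hypoxia and rose 3.13-fold (log2 fold change 1.65, SE 0.27, adjusted p = 0.00134).

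**Figure D3:**
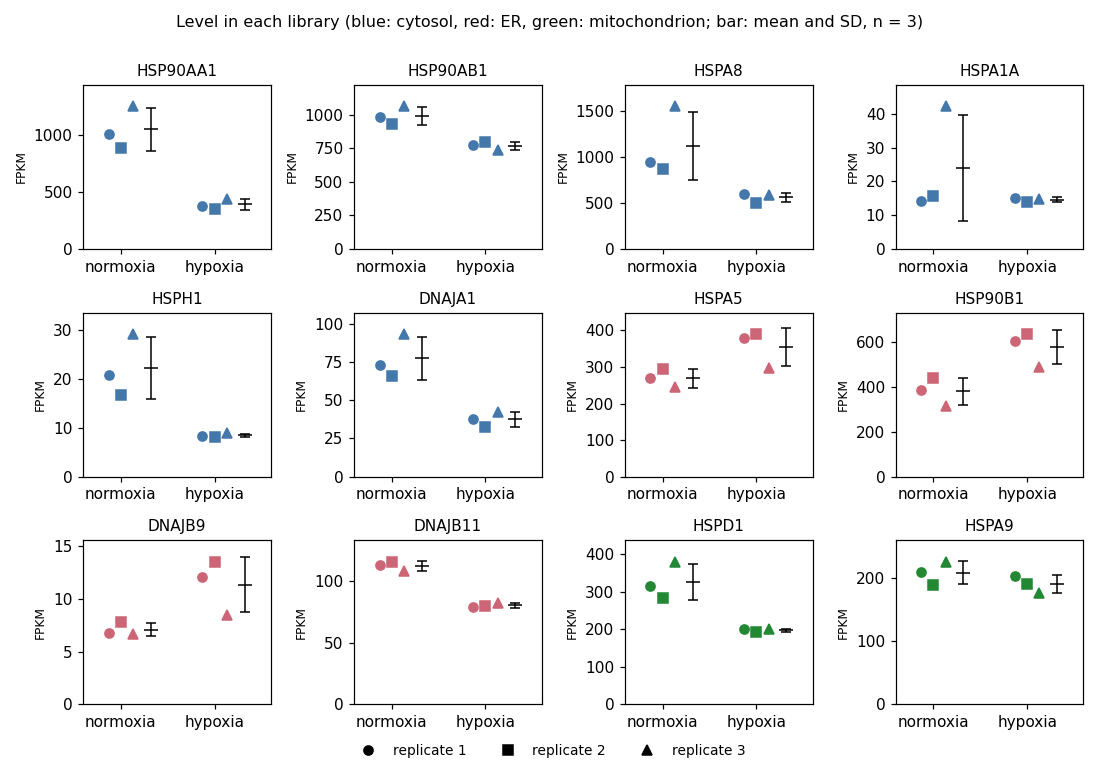
FPKM of 12 members in each library, with normoxia and hypoxia on the x axis, replicates as circles, squares and triangles, and the mean with its SD (n = 3) beside them; each y axis starts at 0. HSP90AA1, HSPA8, HSPH1, DNAJA1 and HSPD1 are lower in all hypoxia libraries, HSP90B1 and HSPA5 are higher, and HSPA1A stands out only in normoxia replicate 3.

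In the ER the transcripts of the main HSP90 and HSP70 rose. HSP90B1, the HSP90 of the ER, was at 1101, 1259 and 902 CPM in normoxia and 1727, 1820.3 and 1406 CPM in hypoxia. The lowest hypoxia library was above the highest normoxia library, and the rise was 1.52-fold (log2 fold change 0.60, SE 0.15, adjusted p = 0.00837). HSPA5 (BiP), the HSP70 of the ER and a sensor of unfolded protein, was at 1067, 1171 and 969 CPM in normoxia and 1504, 1548 and 1176 CPM in hypoxia. Its groups were separated by a narrow gap, between normoxia replicate 2 and hypoxia replicate 3, and the rise was 1.32-fold (log2 fold change 0.40, SE 0.13, adjusted p = 0.0252). The adjusted p was 0.000524 with the replicate block and 0.0681 without normoxia replicate 3 (log2 fold change 0.33), and the call was lost in 6 of the 9 fits that left libraries out. HSPA13, another HSP70 of the ER, rose 1.33-fold (log2 fold change 0.41, SE 0.08, adjusted p = 0.00334). 

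J-proteins of the ER moved both ways. DNAJB9, which promotes degradation of unfolded ER proteins and restrains the stress sensor IRE1, was at 17.3, 19.9 and 16.9 CPM in normoxia and 30.7, 34.3 and 21.5 CPM in hypoxia and rose (log2 fold change 0.67, SE 0.17, adjusted p = 0.0109). DNAJC1, a membrane partner of BiP, rose 1.48-fold (log2 fold change 0.56, SE 0.08, adjusted p = 0.000869). DNAJC18 had the largest rise in the compartment, at 2.03, 1.45 and 1.68 CPM in normoxia and 6.03, 6.1 and 5.85 CPM in hypoxia (log2 fold change 1.80, SE 0.18, adjusted p = 0.000175). DNAJC25 rose by less (log2 fold change 0.29, SE 0.09, adjusted p = 0.0213); 15.6% of its exon bases are shared with a readthrough gene that had 0 or 1 counts. DNAJC16 was not called at 0.26 (adjusted p = 0.0671), but was called higher with the replicate block (adjusted p = 0.0286).

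DNAJB11, a soluble partner that binds clients together with BiP, fell while BiP rose. It was at 192, 196 and 183 CPM in normoxia and 134, 135 and 139.7 CPM in hypoxia, with a gap between the groups (log2 fold change -0.48, SE 0.07, adjusted p = 0.000732). DNAJB12 and DNAJB14, membrane J-proteins that face the cytosol and aid disposal of ER proteins, fell as well (log2 fold change -0.42, SE 0.08, adjusted p = 0.00228 for DNAJB12, and -0.34 for DNAJB14). DNAJC14 also fell (log2 fold change -0.28, SE 0.10, adjusted p = 0.0412), as did DNAJC10, a reductase of disulfide bonds (log2 fold change -0.25, SE 0.08, adjusted p = 0.0303). The calls of DNAJB14, DNAJC10 and DNAJC14 were lost with upper-quartile factors. Those of DNAJC10 and DNAJC14 were also lost when any 1 hypoxia library, or normoxia replicate 2, was left out. All of these calls were lost without replicate 1 of both conditions, and without replicate 2 of both. DNAJC14 was also not called without normoxia replicate 1. DNAJC3, a partner of BiP that also inhibits the kinase PERK, was not called (log2 fold change -0.14, SE 0.08, adjusted p = 0.177), was called lower with the replicate block (adjusted p = 0.0406) and turned positive with upper-quartile factors. Among the 8 members in the ER lumen or acting directly with BiP, 5 rose and 2 fell, where 30.4% of all genes tested were called higher and 29.1% lower.

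Transcripts of the mitochondrial chaperonin fell. HSPD1, whose rings enclose folding matrix proteins, was at 769, 693 and 927 CPM in normoxia and 488, 468 and 488 CPM in hypoxia. All hypoxia libraries were below all normoxia libraries (log2 fold change -0.73, SE 0.11, adjusted p = 0.00106), and without normoxia replicate 3 the log2 fold change was -0.61 (adjusted p = 0.000831). HSPE1, the lid of the same ring, was at 32, 29.4 and 40.5 CPM in normoxia and 16.5, 13.9 and 21.2 CPM in hypoxia and fell 1.97-fold (log2 fold change -0.98, SE 0.18, adjusted p = 0.00233). The genes face away from each other on chromosome 2, at chr2:198351308-198364998 and chr2:198364721-198368187 (GRCh37), and their nearer RefSeq starts are 104 bases apart. HSPE1 shares 63.8% of its exon bases with the readthrough gene HSPE1-MOB4 on the same strand, which had 0 or 1 counts. HSPE1 also shares 12.1% of its exon bases with HSPD1 on the opposite strand, where the counting setting is not known. The HSPE1 count may therefore be too low, and its level next to HSPD1 is uncertain.

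HSPA9, the HSP70 of the matrix, did not pass the test. It was at 737, 667 and 793 CPM in normoxia and 716, 672 and 617 CPM in hypoxia, with overlapping groups (log2 fold change -0.13, SE 0.09, adjusted p = 0.257), and its sign turned with upper-quartile factors. DNAJA3, its J-protein, had a log2 fold change of -0.15 and also turned. DNAJC19 and DNAJC15, which act at the import motor of the inner membrane, fell, with log2 fold change -0.23, SE 0.08, adjusted p = 0.046 for DNAJC19. DNAJC15 was at 23.2, 23.2 and 23.5 CPM in normoxia and 14.9, 13.6 and 16 CPM in hypoxia, with a clear gap between the groups (log2 fold change -0.65, SE 0.10, adjusted p = 0.000953). DNAJC30, which is linked to complex I, fell (log2 fold change -0.65, SE 0.08, adjusted p = 0.00052). DNAJC11, of the outer membrane, fell too (log2 fold change -0.72, SE 0.12, adjusted p = 0.0014), with 43.1% of its exon bases shared with THAP3 on the opposite strand, where the counting setting is not known. DNAJC4 and DNAJC28 were not called, with log2 fold changes of -0.05, which turned positive with upper-quartile factors, and 0.33, which was called higher with the replicate block (adjusted p = 0.0382).

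Of the 8 members that act elsewhere, HSPB11, a part of the intraflagellar transport complex in cilia, had the largest fall of all 65. It was at 84.3, 75.9 and 86.6 CPM in normoxia and 19.7, 21.3 and 27.1 CPM in hypoxia, without overlap, a 3.61-fold fall (log2 fold change -1.85, SE 0.13, adjusted p = 5.53e-05). DNAJB13, of the ciliary axoneme, rose from a low level (log2 fold change 1.74, SE 0.39, adjusted p = 0.00637). It had 7, 12 and 6 counts in normoxia and 35, 37 and 48 counts in hypoxia. The normoxia counts of DNAJB13 averaged below the minimum for members, so a fall from that level could not have been listed. DNAJC27, a small GTPase with a J domain, rose 1.8-fold (log2 fold change 0.85, SE 0.20, adjusted p = 0.00778). DNAJC13, of endosomes, fell (log2 fold change -0.34, SE 0.08, adjusted p = 0.00651), a call lost with upper-quartile factors. DNAJC5, a chaperone of exocytosis, and DNAJC6, which uncoats clathrin vesicles, were not called at -0.08 and -0.05, and both turned positive with upper-quartile factors. DNAJC5B and DNAJC22 were not called at -0.34 and 0.25.

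Summed FPKM give the balance between compartments. Members of the cytosol and nucleus summed to 4495, 4125 and 6056 FPKM in normoxia replicates 1 to 3 and 2960.3, 2909 and 3268 FPKM in hypoxia replicates 1 to 3. Each hypoxia library was below each normoxia library, also with normoxia replicate 3 left aside. ER members summed to 896, 980.2 and 788 FPKM in normoxia replicates 1 to 3 and 1199, 1240.3 and 992 FPKM in hypoxia replicates 1 to 3, higher in each hypoxia library than in any normoxia library. For mitochondrial members the sums were 732 ± 74.2 FPKM in normoxia and 539.6 ± 15.9 FPKM in hypoxia (SD, n = 3). The ER share of the total was 13.7 ± 3.31% in normoxia and 23.8 ± 3.05% in hypoxia (SD, n = 3), the cytosolic share 73.2 ± 4% in normoxia and 63.4 ± 3.25% in hypoxia (SD, n = 3) and the mitochondrial share 11.1 ± 0.593% in normoxia and 11.2 ± 0.391% in hypoxia (SD, n = 3). HSPB1, HSP90AB1, HSPA8, HSP90AA1 and HSP90B1, in order of mean FPKM, made up 68.4 ± 2.48% in normoxia and 65.3 ± 1.45% in hypoxia (SD, n = 3), so the sums follow few genes. The spread of HSPB1 (SD 309.8 FPKM in normoxia) and HSPA8 (SD 373 FPKM) exceeds the gaps between the first 4 means in normoxia.

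**Figure D4:**
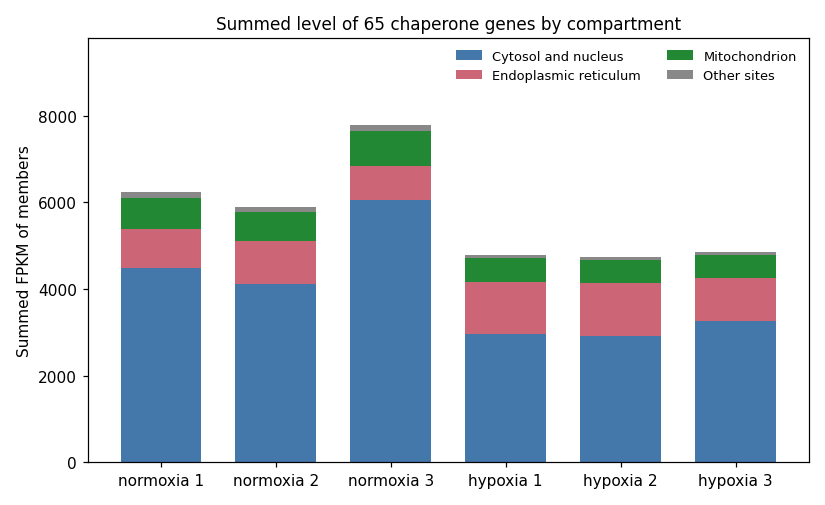
Summed FPKM of the 65 members in each library, as bars that start at 0 and are stacked by compartment. The cytosolic part shrinks from 4125 or more in normoxia to 3268 or less in hypoxia, and the ER part grows from 980 or less to 992 or more.

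Ratios between matching chaperones show the same balance within each library. HSPA5 over HSPA8 was 0.285, 0.341 and 0.158 in normoxia replicates 1 to 3 and 0.64, 0.782 and 0.506 in hypoxia replicates 1 to 3. HSP90B1 over HSP90AA1 was 0.38, 0.495 and 0.251 in normoxia replicates 1 to 3 and 1.6, 1.79 and 1.11 in hypoxia replicates 1 to 3. HSP90B1 thus passed HSP90AA1 in every hypoxia library. It stayed below HSP90AB1, the other cytosolic form, at 604, 636 and 491 FPKM against 773, 793 and 736 FPKM in hypoxia replicates 1 to 3. HSPD1 over HSPE1 was 9.19 ± 0.219 in normoxia and 11.3 ± 2.09 in hypoxia (SD, n = 3), with overlapping groups.

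Other genes of the chaperone system were taken from lists of the same compartments. Of 22 cytosolic cofactors of HSP70 and HSP90, 16 fell (72.7%) and 1 rose (4.55%), with a median of -0.48, where 29.1% of all genes tested were called lower and 30.4% higher. Of tested genes averaging 1000 counts or more, the shares were 42.5% and 20.7%. FKBP4, an immunophilin of steroid receptor complexes with HSP90, fell most (log2 fold change -1.80, SE 0.13, adjusted p = 5.99e-05). CHORDC1, an HSP90 partner, and STIP1, which joins HSP70 to HSP90, fell with log2 fold changes of -1.04 and -1.03. BAG4, a nucleotide exchange factor, rose (log2 fold change 0.32, SE 0.10, adjusted p = 0.0292) but was not called without normoxia replicate 3. Without that library 14 cofactors were lower and 0 higher. Of 14 genes of the cytosolic chaperonin and prefoldin, which fold actin and tubulin, 10 fell (71.4%) and 0 rose. CCT6A had the largest fall (log2 fold change -1.35, SE 0.11, adjusted p = 8.08e-05), ahead of CCT5 at -0.89 and CCT3 at -0.85.

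ER folding partners moved both ways. Of 19 tested, 2 rose and 5 fell, with a median of 0.01, against 30.4% and 29.1% of all genes. With the replicate block 7 were higher and 6 lower, against 36.6% and 35.2% of all genes. HERPUD1, which helps to dispose of unfolded ER proteins, rose (log2 fold change 1.30, SE 0.12, adjusted p = 0.000148). SEC63, a J-protein of the translocation channel, rose by less (log2 fold change 0.25, SE 0.07, adjusted p = 0.0196), a call lost without normoxia replicate 3. SDF2L1, which works with DNAJB11, fell (log2 fold change -1.17, SE 0.29, adjusted p = 0.00897), CRELD2 fell by 1.03 on the log2 scale and CNPY2 by 0.39. HYOU1, the HSP110-class chaperone of the ER lumen, fell as well (log2 fold change -0.32, SE 0.07, adjusted p = 0.00521). The oxidoreductases P4HB and PDIA3 were not called, at 0.22 and 0.24, but were called higher with the replicate block (adjusted p = 0.00673 for P4HB and 0.00398 for PDIA3). PDIA6, of the same kind, was not called at -0.15 but was called lower with the block (adjusted p = 0.0262). PDIA4 was not called in either fit, with a log2 fold change of -0.008 without the block. The names ERO1L, ERO1LB and SELS were not found in the files.

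Among 12 mitochondrial partners 5 fell (41.7%) and 1 rose (8.33%), against 29.1% and 30.4% of all genes. Among tested genes averaging 1000 counts or more, 42.5% were lower and 20.7% higher. GRPEL1, the exchange factor of HSPA9, fell (log2 fold change -0.83, SE 0.12, adjusted p = 0.000918), CLPB, a disaggregase, fell by 0.81 and TRAP1, the mitochondrial HSP90, by 0.69 on the log2 scale, whereas GRPEL2 rose (log2 fold change 0.43, SE 0.09, adjusted p = 0.00377). Without normoxia replicate 3, 3 partners were lower and 3 higher, and with the replicate block 6 were lower and 3 higher. Of 12 regulators 5 rose (41.7%) and 3 fell (25%), against 30.4% and 29.1% of all genes, and with the replicate block 5 were higher and 5 lower. DDIT3, a transcription factor of the integrated stress response, rose most (log2 fold change 2.71, SE 0.20, adjusted p = 7.04e-05), with ERN1, the sensor IRE1, at 1.44 and ATF4 at 0.60. ATF5, linked to the mitochondrial stress response, fell (log2 fold change -1.44, SE 0.23, adjusted p = 0.0012), as did HSBP1, which binds HSF1, and XBP1, the target of IRE1, at -0.72 and -0.70. HSF1 transcript was not called, at 0.03, which says nothing of its activity. Gene counts cannot show splicing of XBP1.

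**Figure D5:**
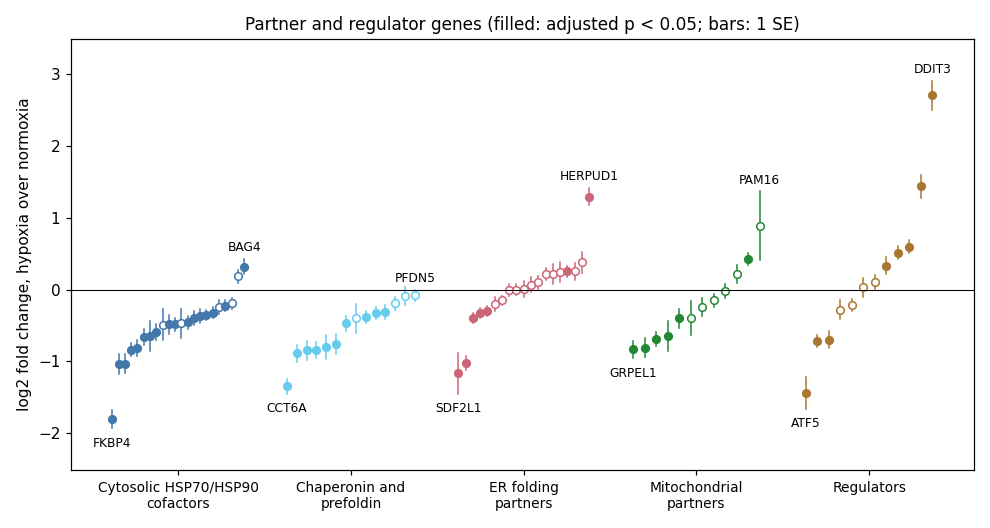
Log2 fold change, hypoxia over normoxia, of the partner and regulator genes in 5 lists, ordered within each list, with bars of 1 SE and filled points past the adjusted p threshold. The cytosolic lists lie mostly below 0, ER partners are spread around it, and DDIT3 and HERPUD1 are the highest of their lists.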

How the data were processed

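RNA of T47D cells was sequenced from stranded mRNA libraries, 3 of normoxia and 3 of hypoxia. The authors used Skewer for trimming and STAR for alignment against GRCh37, and deposited unnormalized featureCounts counts for RefSeq genes. Per the labels, the submitters' processing notes name FastQC 0.11.5, STAR 2.5.2a and featureCounts 1.5.1. The strand setting and the handling of reads with several matches are not given in the sources used here, so counts of overlapping and near-identical genes are uncertain.

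Counts were filtered with filterByExpr (minimum count 10, minimum total 15) and tested with edgeR 4.0.16 in R 4.3.3 (quasi-likelihood test, TMM factors, condition as the only term, Benjamini-Hochberg adjustment over 15657 genes). The study names edgeR's exact test, run as an alternative beside DESeq2 1.42.0. At these depths 3 counts correspond to 0.0328 to 0.0969 CPM, which covers counting error only. FPKM used the exon length in the files, except for HSPA1A, HSPA1B and HSPA1L, whose length was taken on chromosome 6 alone. Deviations from the group means were correlated between same-numbered libraries (0.453, 0.519 and 0.634), so the numbers were taken to pair the libraries. Fits with the number as a block are given where they change the call of a member, and for partner lists as counts where these move by over 1.5 times.

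Of the members, 64 overlapped the GENCODE gene of their name on GRCh37, the exception being HSPB11. The members, compartments, partner lists and motifs were chosen with earlier results of these data known. Genes given in full were 18 chosen for their roles and, in each compartment, the 5 largest called changes each way, 37 in all. In each partner list the 3 largest called changes each way were named, and P4HB, PDIA3, PDIA4, PDIA6, HYOU1 and HSF1 after their values were seen. Scripts were tested on simulated data. Figures used matplotlib 3.10.9 under Python 3.11.15.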

Additional observations from a re-analysis of the deposited data

How the results depend on the processing

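Alternatives covered the test, the normalization, the filter, the threshold, a minimum mean of 100 counts, the replicate block, the summed HSPA1A and HSPA1B pair, and libraries left out singly or by replicate number. Of the 37 genes given in full, 33 kept their direction in every alternative. HSPA9 turned to 0.0283 and DNAJC3 to 0.016 with upper-quartile factors. With libraries left out, HSPA1B ranged from -0.99 to 0.44 and DNAJB1 from -0.32 to 0.0859, both turning without normoxia replicate 3 alone or replicate 3 of each condition. Upper-quartile factors moved the median log2 fold changes to -0.0704 for all members, -0.12 for cytosolic, 0.43 for ER and -0.28 for mitochondrial members, and left 2 ER members lower and 1 mitochondrial member higher, which follows the shift of all genes. A minimum mean of 100 counts left 3 cytosolic members higher and a cytosolic median of -0.42. An adjusted p below 0.01 left 4 ER members higher and 3 lower.

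With the replicate block 18 members were higher and 33 lower, 1 mitochondrial member (DNAJC28) was higher, and beside the members named with it in the report the block changed no other call of a member. With libraries left out, members higher ranged from 9 to 19 and members lower from 17 to 33. Cytosolic members lower ranged from 10 to 19, ER members higher from 2 to 8, ER members lower from 1 to 5 and mitochondrial members higher from 0 to 1. The cytosolic median ranged from -0.43 to -0.21 and the mitochondrial median from -0.46 to -0.39. The lowest counts came without replicate 1 of both conditions, with 2 libraries left in each, and those counts were 9 members higher and 17 lower. In that fit 2648 of all genes were higher and 2191 lower, against 4765 and 4551 with all libraries; the cause was not tested. Depth limited DNAJB3 and DNAJB13, with means of 21.3 and 24.2 counts.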

Other observations

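Some genes left out by name were tested. DNAJC9-AS1, annotated antisense to DNAJC9, rose with 206, 198 and 139 counts in normoxia and 285, 241 and 623 counts in hypoxia (log2 fold change 0.44, SE 0.14, adjusted p = 0.0228, edgeR), while DNAJC9 fell. DNAJC3-AS1 rose as well (log2 fold change 0.49, SE 0.16, adjusted p = 0.031, edgeR), while DNAJC3 was not called. The annotated exons of DNAJC9-AS1 and DNAJC3-AS1 share no bases with those of DNAJC9 and DNAJC3, although the strand setting of the counting is not known. The pseudogene HSP90B2P, with 8 to 35 counts in each library, was not called (log2 fold change -0.06).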
